A study of Mus musculus with 4 samples.

Results

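Amino acid transporter genes were followed on 4 Affymetrix gene arrays of RNA from B16-OVA, a line of mouse melanoma cells made to carry the ovalbumin gene. The genes were taken by name: every gene whose single symbol on the array platform belongs to the solute carrier families Slc1, Slc3, Slc7, Slc36, Slc38 or Slc43. This gave 42 genes of the 22180 with a single symbol. Per the labels, 2 arrays hold the mock transfection and 2 the transfection with AT90ES, and 1 treatment text, a transfection of double-stranded DNA of 90 bases length with Lipofectamine for 6 hours, stands for all 4. AT90ES is tied to that DNA through the group names. The labels do not say what went into the mock transfection, so the DNA and the act of transfection cannot be told apart. All cells were of the 1 line, grown in serum-containing medium. The pigment cell genes Dct and Tyrp1 had mean log2 levels of 12.91 and 12.77 on the mock arrays, and 8 of 9 pigment cell markers lay above the background reference described next on all 4 arrays.

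Levels are the deposited log2 values, and a difference of 1 on this scale is a 2-fold change. As a reference for genes taken as not expressed, the 95th percentile of 1088 olfactory receptor genes was used, which lay between 4.85 and 5.07 on the 4 arrays. Of the 42 transporters, 22 lay above it on all 4 arrays, 28 on at least 2 and 13 on none. For genes near this reference a difference could go unseen. The level of a probe depends on its sequence, so levels are compared between arrays and not between genes. In bulk RNA, fewer cells that express a gene and less of its RNA per cell cannot be told apart.

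Amino acids do not cross membranes by themselves and are carried by families of membrane proteins. Slc7 proteins of the heteromeric kind work as light chains bound to a heavy chain of the Slc3 family, which brings them to the cell surface. Slc1 proteins carry glutamate or small neutral amino acids with sodium, and Slc38 proteins carry glutamine and other neutral amino acids with sodium. Slc36 proteins include carriers that use protons, and Slc43 proteins include carriers of large neutral amino acids. Several of these genes are textbook targets of ATF4, the transcription factor made when cells lack amino acids or are otherwise stressed, which binds with C/EBP proteins to a short element in their promoters. Tumour cells depend on these carriers for glutamine, for leucine, which feeds growth signalling, and for cystine, from which glutathione is made.

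Slc7a11 was the transporter that passed the test. It encodes xCT, the light chain of the exchanger that brings cystine in and lets glutamate out. Its RefSeq gene spans chr3:50364936-50499087 of GRCm38.p6, on the minus strand. The promoter window that RefSeq's table gives for it is shown because it holds 2 copies of the letters TGATGNAA, the core of the C/EBP-ATF response element, searched on both strands and given in capitals. The stretch is chr3:50443614-50443863, minus strand, the 250 bases before a start site that lies inside the gene's span and is not its outermost one. The promoter of Slc1a4, the gene with the next largest difference, is shown from 150 bases before its start through the first 20 bases of the transcript (chr11:20332694-20332863, minus strand), and that of Slc3a2, the heavy chain partner of Slc7a11, for the 150 bases before the start in that table (chr19:8713898-8714047, minus strand), which also lies inside the gene's span of chr19:8706882-8723369.
Slc7a11: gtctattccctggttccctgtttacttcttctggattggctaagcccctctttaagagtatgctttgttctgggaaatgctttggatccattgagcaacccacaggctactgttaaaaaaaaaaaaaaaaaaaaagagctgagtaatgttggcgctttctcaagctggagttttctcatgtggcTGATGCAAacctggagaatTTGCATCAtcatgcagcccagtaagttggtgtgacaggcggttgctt
Slc1a4: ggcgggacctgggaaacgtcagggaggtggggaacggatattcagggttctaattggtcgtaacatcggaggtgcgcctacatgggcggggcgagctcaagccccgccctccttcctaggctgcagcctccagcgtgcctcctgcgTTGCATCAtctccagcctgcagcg
Slc3a2: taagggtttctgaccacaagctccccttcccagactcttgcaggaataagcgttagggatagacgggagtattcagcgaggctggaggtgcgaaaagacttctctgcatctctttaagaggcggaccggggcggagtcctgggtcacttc
With the start base counted as 0, the Slc7a11 matches lay at -66 to -59 and, on the other strand, at -47 to -40. The Slc1a4 match lay across the start at -4 to 3. The Slc3a2 window held none, which says only that these letters are not in this window; other starts of the gene were not searched. RefSeq's table had windows of 250 bases before to 50 bases after a start for 31 of the 42 genes, in 42 windows, and the core was in those of 3 genes, Slc7a11, Slc1a4 and Slc7a7. The other 11 genes had no window and were not searched, among them Slc1a5, Slc38a1 and Slc7a5. A share of 3.97% of the 32851 windows held it at least once and 0.07% at least 2 times. A window of Slc7a7 also held it 2 times, at -141 to -134 and at -1 to 6. The core of the antioxidant response element, TGACNNNGC, was in windows of 5 of the 31 genes (Slc36a1, Slc38a2, Slc43a1, Slc7a1 and Slc7a6) and in 12.4% of all windows, and not in the window of Slc7a11. Some genes had several windows, so for both motifs the counts of genes cannot be set directly against the shares of windows. These matches describe letters and not binding, and both motifs were chosen with the array results known.

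The log2 level of Slc7a11 was 5.58 and 5.84 in mock and 7.69 and 7.21 in AT90ES cells. Both AT90ES arrays lay above both mock arrays, and all 4 lay above the olfactory reference. Slc7a11 rose by 1.74 ± 0.20 on the log2 scale (SE, n = 2 arrays per group), a 3.34-fold change with a 95% interval of 2.38 to 4.68 and an adjusted p = 0.0415 in limma's test over all 22180 genes. By size it was the 44th rise of all genes. A second, dimmer probe of Slc7a11 read 2.85 and 3.08 in mock and 4.04 and 4.15 in AT90ES cells, so its groups did not overlap either. That probe lay under the olfactory reference on every array, and its difference was 1.13 ± 0.15. With every one of the 41345 probes tested for itself, neither probe passed (adjusted p = 0.223 for the brighter and 0.248 for the dimmer). The call was also lost whenever 1 array was left out: leaving out mock replicate 1 gave an adjusted p = 0.145 and mock replicate 2 one of 0.0929, and leaving out AT90ES replicate 1 gave 0.140 and AT90ES replicate 2 gave 0.0556. The log2 difference was between 1.50 and 1.98 in these 4 fits, where the single array of a group takes its spread from the other group.

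**Figure D1:**
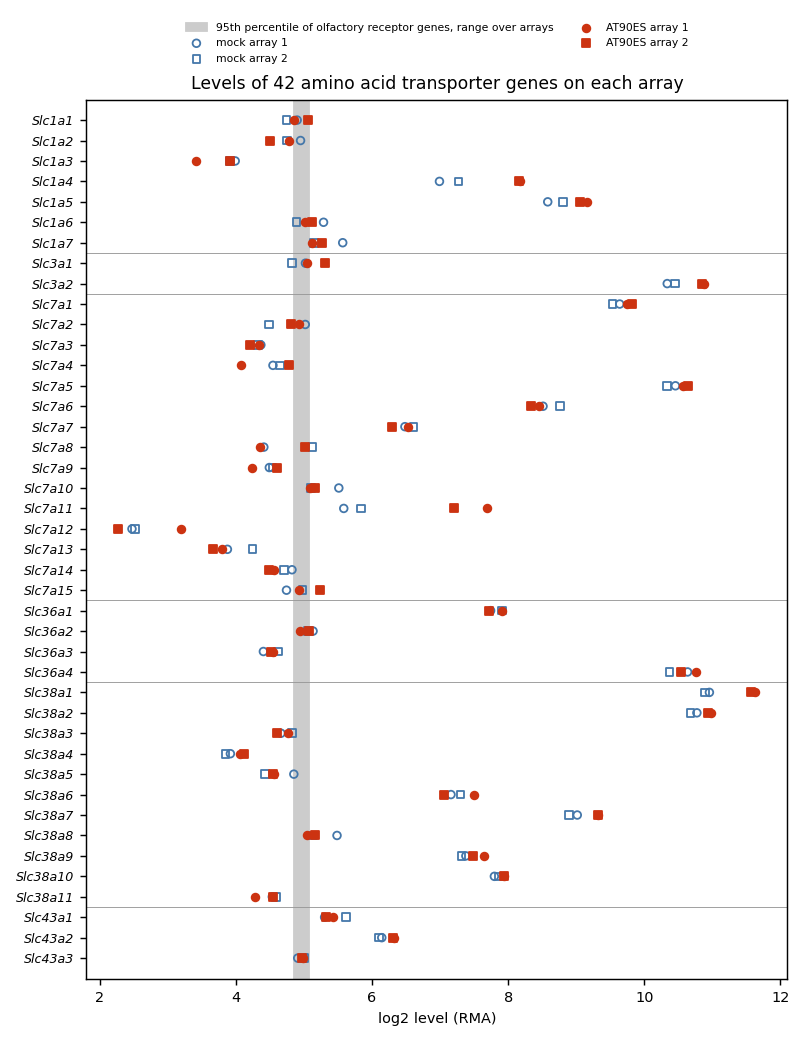
Log2 level of each of the 42 transporter genes (rows, by family) on the 2 mock arrays (open blue) and 2 AT90ES arrays (filled red); the grey band is the range over arrays of the 95th percentile of olfactory receptor genes, 4.85 to 5.07. Slc7a11 and Slc1a4 show the widest gaps between the groups, and 13 genes lie under the reference on every array.

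Over the whole set, limma called 1 of 42 transporters higher (2.38%) and 0 lower, against 0.415% of all genes higher and 0% lower, so the count above the background rests on a single gene. At an unadjusted p under 0.05, 6 of 42 were higher (14.3%) and 0 lower, against 4.5% of all genes higher and 4.59% lower. The 6 were Slc7a11, Slc1a4, Slc38a1, Slc3a2, Slc1a5 and Slc38a7. Both AT90ES arrays lay above both mock arrays for 14 of 42 transporters (33.3%), against 17.7% of all genes, and below them for 3 (7.14%), against 22.1%. When limma lets the spread depend on the level of a gene (an intensity trend), 7 of 42 were called higher (16.7%) and 0 lower, against 1.94% and 0.73% of all genes. These 7 were the same 6 and Slc38a2. The median log2 difference was 0.03 over the 42 transporters and -0.02 over all genes, and both were negative, -0.03 and -0.07, with arrays centred on 7 reference genes.

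**Figure D2:**
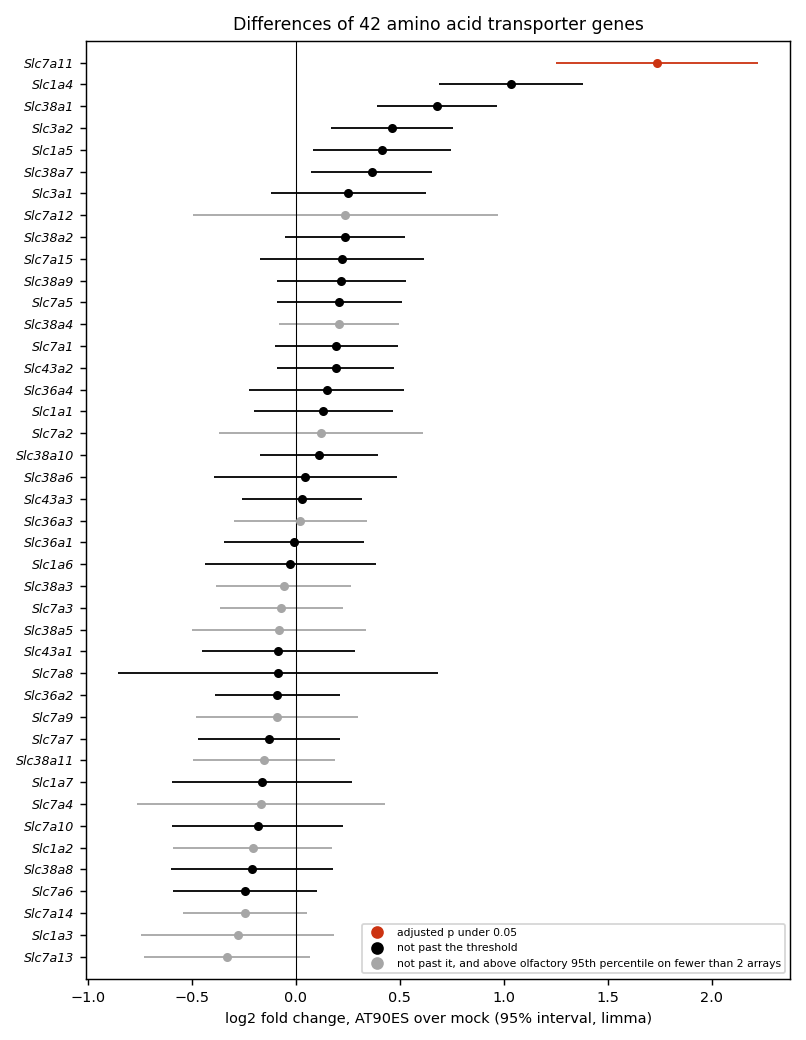
Log2 fold change of AT90ES over mock for each of the 42 transporters, with its 95% interval from limma's fit. Slc7a11 (red) is the one gene past the adjusted threshold; the intervals of Slc1a4, Slc38a1, Slc3a2, Slc1a5 and Slc38a7 lie above 0 before adjustment for the number of genes, and grey marks genes above the olfactory reference on fewer than 2 arrays.

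The Slc3 heavy chains are the partners of the Slc7 light chains. Slc3a2, which encodes the heavy chain of CD98 and pairs with xCT and with the carriers of large neutral amino acids, had log2 levels of 10.34 and 10.45 on mock and 10.87 and 10.84 on AT90ES arrays. Its groups did not overlap, and the log2 difference of 0.46 ± 0.12 was 1.38-fold (95% interval 1.13 to 1.69, adjusted p = 0.371). Under the intensity trend it passed, with an adjusted p = 0.000305. Slc3a1, the heavy chain of the kidney cystine carrier, stood near the olfactory reference at 5.02 and 4.82 on mock and 5.04 and 5.31 on AT90ES arrays, a difference of 0.25 ± 0.15. Its light chain partner Slc7a9 lay under the reference on every array and differed by -0.09.

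The other light chains showed no difference past the threshold. Slc7a5, the main carrier of leucine into tumour cells, had log2 levels of 10.46 and 10.34 on mock and 10.56 and 10.65 on AT90ES arrays. These did not overlap, but the difference of 0.21 ± 0.12 had a 95% interval from -0.09 to 0.51. Slc7a6, an exchanger of basic for neutral amino acids, lay lower on both AT90ES arrays, at 8.46 and 8.33 against 8.51 and 8.76, a difference of -0.24 ± 0.14 that did not pass (adjusted p = 0.668). Slc7a7, which has the same transport activity and is mutated in lysinuric protein intolerance, overlapped between the groups and differed by -0.13. The promoter windows of Slc7a7 held the same C/EBP-ATF core as those of Slc7a11 and Slc1a4, with 2 matches in a single window as for Slc7a11. Slc7a8, a second carrier of large neutral amino acids, varied more between arrays of a group than between groups, with 4.41 and 5.13 on mock and 4.35 and 5.02 on AT90ES arrays. Slc7a10, a carrier of small neutral amino acids, differed by -0.18 and Slc7a15 by 0.22, both near the reference. Slc7a12 and Slc7a13, light chains known from kidney, lay under it on every array. Slc7a13 had the most negative difference of the 42 at -0.33 ± 0.16, and Slc7a12 read 3.19 and 2.27 on the AT90ES arrays.

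Of the cationic carriers, which bring in arginine and lysine, Slc7a1 was clearly above the olfactory reference. Its log2 levels of 9.64 and 9.54 on mock and 9.74 and 9.82 on AT90ES arrays did not overlap, and the difference of 0.19 ± 0.12 did not pass (adjusted p = 0.692). Slc7a2 lay above the reference on 1 array and Slc7a3 on none, and they differed by 0.12 and -0.07. Their sequence relatives Slc7a4 and Slc7a14 lay under it on every array, at differences of -0.17 and -0.25.

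In the Slc1 family the groups were separate and higher in AT90ES cells for 2 of 7 genes, against 17.7% of all genes. These 2 are the carriers of neutral amino acids, and the groups overlapped for all 5 glutamate carriers. The 5 lay near or under the olfactory reference, where a difference could go unseen. Slc1a4, which exchanges alanine, serine and cysteine, had log2 levels of 6.99 and 7.27 on mock and 8.17 and 8.16 on AT90ES arrays. The groups were separate, and the difference of 1.04 ± 0.14, a 2.05-fold change (95% interval 1.61 to 2.61), missed the threshold with an adjusted p = 0.0765. It passed in 3 of 13 alternatives, with the intensity trend (0.000208), with dim genes left out (0.0251) and with arrays centred on their median (0.0385). Slc1a5, the main glutamine carrier of many tumour cells, had levels of 8.58 and 8.80 on mock and 9.16 and 9.05 on AT90ES arrays, a difference of 0.41 ± 0.13 (adjusted p = 0.459). Its dimmer probe gave 0.33 ± 0.14. The carriers of glutamate known from neurons, glia and retina lay near or under the reference. Slc1a1 differed by 0.13, Slc1a2 by -0.21, Slc1a3 by -0.28, Slc1a6 by -0.03 and Slc1a7 by -0.16, each with overlapping groups.

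In the Slc38 family 0 of 11 genes passed. The groups were separate and higher in AT90ES cells for 6 of the 11 and lower for 0, against 17.7% and 22.1% of all genes. Slc38a1, a sodium-coupled importer of glutamine and other neutral amino acids, had log2 levels of 10.96 and 10.89 on mock and 11.63 and 11.57 on AT90ES arrays. The SD between arrays was 0.05 in either group, and the difference of 0.68 ± 0.12, 1.60-fold with a 95% interval of 1.31 to 1.95, had an adjusted p = 0.166. It passed with the intensity trend (1.33e-06) and with dim genes left out (0.0475). Slc38a2, the relative whose messenger is known to respond to amino acid shortage, had 10.77 and 10.68 on mock and 10.98 and 10.94 on AT90ES arrays. These did not overlap, and the difference of 0.23 ± 0.12 passed under the intensity trend only (adjusted p = 0.621, and 0.0271 with the trend). Of the other Slc38 genes, the importers Slc38a3, Slc38a4 and Slc38a5 and the little studied Slc38a11 lay under the reference on every array, with differences between -0.15 and 0.21. Slc38a6 and Slc38a10 were above it on all arrays and differed by 0.05 and 0.11, and Slc38a8 by -0.21. Slc38a4 is among the 6 with separate groups, though it lay under the reference. Slc38a10 is among the 6 by its brighter probe. Its dimmer probe read 5.39 and 4.97 on mock and 5.10 and 5.24 on AT90ES arrays, which overlap.

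**Figure D3:**
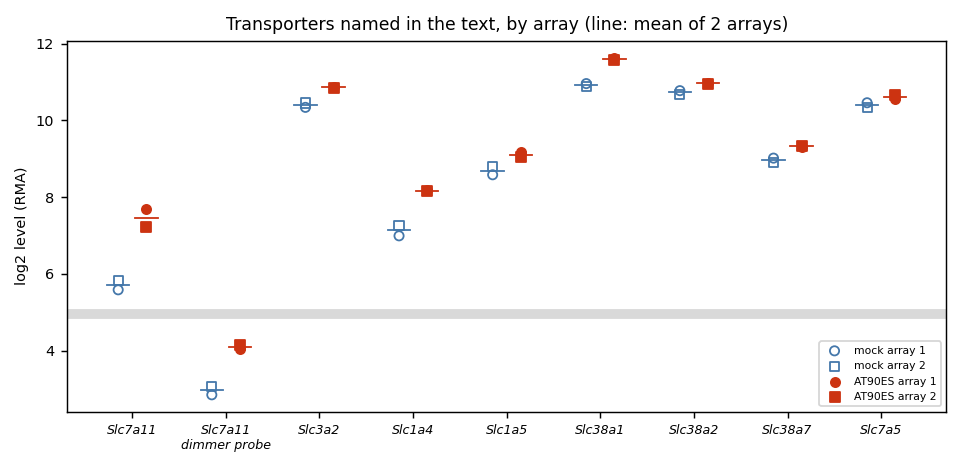
Log2 level on each array for 8 transporters and the dimmer Slc7a11 probe, with a line at the mean of the 2 arrays of a group; the grey band is the olfactory reference. The groups are separate for each gene shown, by most for Slc7a11 (mean 5.71 on mock, 7.45 on AT90ES arrays), whose dimmer probe lies under the band.

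Carriers of the lysosome pass amino acids back to the cytoplasm, and some report on them to the growth kinase mTORC1. Slc38a7, a lysosomal carrier of glutamine and asparagine, had log2 levels of 9.02 and 8.90 on mock and 9.32 and 9.33 on AT90ES arrays, with a difference of 0.36 ± 0.12 (adjusted p = 0.459, and 0.0227 with the trend). Slc38a9, the arginine sensor of the lysosome, read 7.38 and 7.31 on mock and 7.65 and 7.48 on AT90ES arrays, a difference of 0.22 ± 0.13 that did not pass. Slc36a1, a proton-coupled carrier of small amino acids, read 7.74 and 7.91 on mock and 7.92 and 7.72 on AT90ES arrays. Its difference of -0.01 had a 95% interval from -0.35 to 0.33. Slc36a4, a relative with higher affinity, overlapped between the groups and differed by 0.15 by its brighter probe and 0.05 by its dimmer one. Slc36a2 and Slc36a3 differed by -0.09 and 0.02.

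In the Slc43 family no gene passed. Slc43a2, a carrier of large neutral amino acids, had levels of 6.14 and 6.10 on mock and 6.32 and 6.31 on AT90ES arrays, separate by a small margin, with a difference of 0.19 ± 0.11 (adjusted p = 0.683). Its relative Slc43a1 overlapped at a difference of -0.08. Slc43a3, which came in through its family name and is known as a carrier of purine bases and not of amino acids, differed by 0.03.

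Genes that work beside the transporters were taken from lists. Of 24 measured genes of the amino acid response and of amino acid synthesis, 4 rose, 0 fell and 20 did not pass, where 0.415% of all genes were called higher. The median log2 difference was 0.48 against -0.02 over all genes, and 20 of the 24 differences were positive and 4 negative. Nupr1, a stress-induced chromatin factor, was at 6.07 and 6.39 on mock and 8.01 and 7.88 on AT90ES arrays and rose by 1.72 ± 0.15 (adjusted p = 0.0189). Sesn2, Ddit4 and Chac1 were the other 3, at 2.08, 1.79 and 1.20. Sesn2 restrains mTORC1 when leucine is short, Ddit4 restrains it under stress, and Chac1 breaks down glutathione. Of those that did not pass, the transcription factors Ddit3 and Cebpb stood at 0.71 and 0.57. Trib3, a feedback inhibitor of ATF4, stood at 0.91 and Asns, which makes asparagine, at 0.53. All 4 were picked with their values known, and all lie above the median of the list. Cth, Psph and Mthfd2 did not pass either, at 0.68, 0.61 and 0.55. At an unadjusted p under 0.05 in limma, 15 of the 24 were higher and 0 lower, against 4.5% and 4.59% of all genes. Some that did not pass were flatter or lower: Atf4 itself stood at 0.20 and Psat1 at 0.15. Phgdh, Got1, Stc2 and Vldlr stood at -0.02, -0.08, -0.05 and -0.17, with Vldlr under the olfactory reference on every array. The count of 4 was 2 without mock replicate 1, 3 without mock replicate 2 and 1 without either AT90ES array, and it was 14 with the intensity trend, which called 1.94% of all genes higher.

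The list of glutathione and cystine use covers the pathway fed by Slc7a11 and some genes beside it, among them Hmox1. It had 1 of 15 measured genes higher, 0 lower and 14 not passed (0.415% of all genes higher), with a median of 0.06. The 1 was Hmox1, which breaks down heme, at 8.24 and 8.56 on mock and 10.01 and 9.80 on AT90ES arrays. It rose by 1.50 ± 0.16 (adjusted p = 0.0334), a call that was not made in any of the 4 fits without an array. Gclc, the rate-limiting enzyme of glutathione synthesis, stood at 0.31 and Gss, the enzyme of the last step, at 0.59, neither past the threshold. Srxn1 and Nqo1 lay higher on both AT90ES arrays, at 0.46 and 0.44, and did not pass. Gclm lay lower on both AT90ES arrays, at -0.12, and Gsr and Gpx4 stood at -0.06 and 0.02. These genes were named after their values were seen. Over the 15 genes, 11 differences were positive and 4 negative. At an unadjusted p under 0.05 in limma, 5 of the 15 were higher and 0 lower (4.5% and 4.59% of all genes). Lysosomal amino acid sensing had 1 of 32 genes higher, again Sesn2, 0 lower and 31 not passed (0.415% of all genes higher), with a median of 0.10. At an unadjusted p under 0.05, 5 of the 32 were higher and 1 lower (4.5% and 4.59% of all genes). Of 18 measured aminoacyl-tRNA synthetases 0 passed, with a median of 0.15, while 6 were higher at an unadjusted p under 0.05 (4.5% of all genes) and 7 with the intensity trend (1.94% of all genes). All 18 lay above the olfactory reference on all 4 arrays, as did 22 of the 24 genes of amino acid response and synthesis. Of all 22180 genes 11708 did, so the shares of all genes include many dim genes that these 2 lists hardly hold. Gars and Iars, the glycine and isoleucine enzymes, stood at 0.23 and 0.38. Of 30 measured genes of other amino acid carrier families 0 passed, with a median of -0.02, while at an unadjusted p under 0.05 there were 1 higher and 2 lower (4.5% and 4.59% of all genes), and with the trend 1 lower (0.73% of all genes). Slc6a6, the taurine carrier, stood at -0.30 and Slc25a13, the aspartate-glutamate carrier of mitochondria, at -0.16.

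**Figure D4:**
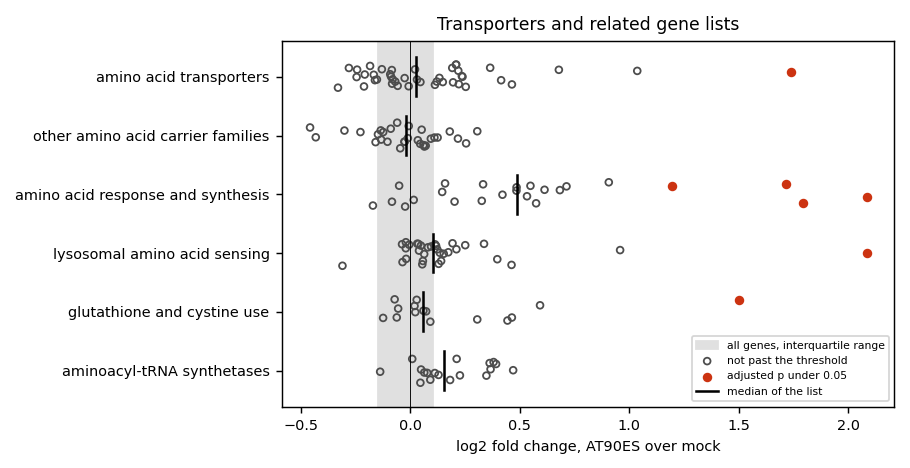
Log2 fold change of AT90ES over mock for the 42 transporters and 5 related lists; red points passed the adjusted threshold, the black line is the median of a list and the grey band the interquartile range of all genes. The amino acid response list has its median at 0.48, and the transporters have theirs at 0.03 with Slc7a11 as their 1 red point.

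As a check of the groups, all 8 interferon response genes of a short list (Ifit1, Isg15, Rsad2, Mx2, Cxcl10, Ccl5, Ifih1 and Ddx58) were called higher on AT90ES arrays, in limma's fit and in each of 13 alternatives. Of 8 myeloid, 7 lymphocyte and 8 fibroblast and endothelial markers, 0 passed in limma, and 0, 1 and 0 of them had an unadjusted p under 0.05. The summed linear level of the myeloid markers was 337 to 340 on mock and 290 to 321 on AT90ES arrays, and that of the pigment cell markers was 30390 to 30556 on mock and 29063 to 30646 on AT90ES arrays. Only 4 of the 8 myeloid markers lay above the olfactory reference on all 4 arrays, so the myeloid sum holds background signal. Of the 9 pigment cell markers 0 passed, but Mitf, the master regulator of melanocytes, lay lower on both AT90ES arrays, with a difference of -0.34 and an unadjusted p under 0.05, and 1 marker was called lower with the intensity trend. The part of these markers in the results on transporters was not tested.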

How the data were processed

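RNA of 4 samples was labelled from 300 ng of total RNA each, per the labels' protocols. The authors deposited log2 levels for 41345 probes, which are RMA values per the submitters' processing notes; software, version and settings are not given in the sources used here. RMA equalises arrays, so every difference is relative to the other genes, and a change shared by all genes cannot be seen. Precision is limited by the number of arrays.

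Probes were named from the platform annotation; 23521 had a single symbol, and none other was used. A gene's probe of highest mean stood for it, which mattered for 4 of the 42 transporters (Slc1a5, Slc36a4, Slc38a10 and Slc7a11). All 42 matched RefSeq by gene ID. The groups were compared with limma 3.58.1 (R 4.3.3) (lmFit, eBayes; 2 residual and 3.70 prior degrees of freedom), two-sided, with Benjamini-Hochberg adjustment over 22180 genes and a threshold of 0.05; every adjusted p is from limma. An exact permutation test of 2 against 2 arrays cannot go below 0.333. The labels do not say that replicates were separate cultures, so the p-values measure the spread between arrays, which may be technical. The steps were tested on simulated data.

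Genes named are all transporters past the threshold, the largest differences and highest levels per family, a set of well-known members and up to 4 genes per further list; others are named after their values were seen. The transporters and lists were chosen with earlier results of these data known. Sequences are RefSeq's, of GRCm38.p6.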

Additional observations from a re-analysis of the deposited data

How the results depend on the processing

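Across 13 alternatives, the 42 transporters gave 517 comparisons that stayed on their side of the threshold, 9 that newly passed and 5 that no longer passed, with 0 reversals of a call; the 5 were all of Slc7a11. The 92 calls among all genes and the 1 among transporters became 593 and 7 with an intensity trend, 166 and 3 with dim genes left out (13058 genes and 27 transporters kept), 128 and 2 after each array was centred on its median, 28 and 0 with every probe tested, and 32 to 47 and 0 without 1 array. With the intensity trend the amino acid response list had 14 calls, aminoacyl-tRNA synthetases 7, glutathione use 3, lysosomal sensing 2 and other carrier families 1; with every probe tested the response list had 1 and glutathione use 0, and lysosomal sensing had 2 after median centring. Without 1 array the response list had 1 to 3 and glutathione use 0. The median of the transporters was 0.15 with dim genes left out, which drops 15 of them. The cause of these shifts was not tested, beyond the fewer genes or arrays that some settings hold.

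Replicate numbers are shared by the groups, but nothing says that they mark a shared culture, and deviations of same-numbered arrays from their group means correlated at -0.222 over genes. With the replicate block limma called 85 genes and 1 transporter. A crossed pairing, chosen after the data were seen, called 59 and 1. In limma's fit with no alternative setting, the difference of 1.04 of Slc1a4 missed the threshold. With the intensity trend a difference of 0.23 (Slc38a2) passed.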
